A study of Mus musculus with 17 samples.

Results

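The genes described here are 54 lysosomal hydrolases and membrane proteins, taken by name from a list and measured in the kidney RNA of 17 mice. The list holds 12 proteases, 13 glycosidases with aspartylglucosaminidase, 7 sulfatases and heparan sulfate enzymes, 7 lipid and phosphate enzymes, 4 activators and sterol carriers, and 11 membrane proteins. All 54 were among the 35971 genes of the series and among the 17011 genes that passed the filter on low counts. Every mouse carried the lsl-PRCC-TFE3 KI allele, a fusion of PRCC to the transcription factor TFE3 placed at Rosa26 behind a stop that Cre recombinase removes. The 4 Cre(−) mice had no KSP-Cre and therefore served as controls with a silent allele, and of these replicates 1 and 2 also carried HIF1af/f while replicates 3 and 4 carried no floxed HIF allele. The other groups all carried KSP-Cre(+), and were 3 PRCC-TFE3 KI mice, 4 KI mice with HIF1af/f (Hif1α KO), 3 KI mice with HIF2af/f (Hif2α KO) and 3 KI mice with both floxed alleles (DKO). KSP-Cre is driven by the Cadherin 16 promoter, which is active in kidney epithelium, so that the fusion and the deletions were limited to epithelial cells of a whole kidney that also holds stroma, vessels and leukocytes. The labels give no age.

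Lysosomal hydrolases are made in the endoplasmic reticulum, tagged with mannose 6-phosphate in the Golgi and delivered to an acidic organelle whose membrane is lined with heavily glycosylated proteins such as Lamp1 and Lamp2. Many of their genes carry an E-box-like promoter element, the CLEAR element, that is bound by TFEB, TFE3 and MITF, factors that move to the nucleus when nutrients are short and raise lysosome production. Fusions such as PRCC-TFE3 keep the DNA-binding part of TFE3 and stay in the nucleus, and in the kidney they cause translocation renal cell carcinoma.

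The promoter windows of the members were searched first, since they carry the sequence that TFE3 is known to read. RefSeq windows (GRCm38.p6) from 250 bases before to 50 after the annotated start were found for 47 of the 54 members, and for none of Aga, Hgsnat, Ctsh, Npc1, Asah1, Galns and Ctsb. The E-box letters CACGTG, which read the same on both strands, stood in the windows of 16 of the 47 members (34.0%), against 8.09% of the 27025 genes that have a window. The longer CLEAR core TCACGTGA, which contains the E-box, stood in 7 of 47 (14.9%), against 1.12% of all genes. The M-box, searched on both strands as TCACGTGA, TCACATGA, TCATGTGA or TCATATGA and thus overlapping the CLEAR core, stood in 11 of 47 (23.4%), against 2.62%. In a second list of lysosomal genes, described at the end, 35 genes had a window. Of these 11.4% held the E-box, 8.57% the CLEAR core and 11.4% the M-box. A match is a description of the letters and does not show that the site is bound.

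The stretches below show upstream E-boxes, with CACGTG in capitals, of a member with 4 of them (Lamp1), of members from 3 classes that rose in KI kidneys (Mcoln1, Ctsd, Gaa, Cln3), of 2 members that fell (Glb1, Ctsf) and of 2 without a call (Lgmn, Sumf1). Each is read 5′ to 3′ on the strand of its gene, and positions are those of GRCm38.p6. Upstream refers to the RefSeq start only. In the GENCODE annotation used for the counts, the stretches of Mcoln1, Ctsd and Cln3 lie inside the gene and overlap exons. That of Lgmn lies inside the gene without overlapping an exon.
Lamp1 (chr8:13159082-13159160, plus strand): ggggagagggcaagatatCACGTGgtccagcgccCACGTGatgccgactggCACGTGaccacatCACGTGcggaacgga
Mcoln1 (chr8:3500462-3500491, plus strand): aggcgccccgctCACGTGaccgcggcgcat
Ctsd (chr7:142387908-142387937, minus strand): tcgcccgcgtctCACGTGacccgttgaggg
Gaa (chr11:119267805-119267846, plus strand): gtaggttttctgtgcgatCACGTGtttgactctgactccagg
Cln3 (chr7:126583340-126583369, minus strand): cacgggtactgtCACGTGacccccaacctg
Glb1 (chr9:114401012-114401053, plus strand): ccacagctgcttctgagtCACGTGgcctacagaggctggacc
Ctsf (chr19:4855068-4855109, plus strand): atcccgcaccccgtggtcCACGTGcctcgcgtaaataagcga
Lgmn (chr12:102439118-102439159, minus strand): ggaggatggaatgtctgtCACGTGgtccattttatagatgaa
Sumf1 (chr6:108185584-108185612, minus strand): gctttaagcaccacaggtCACGTGatctc

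Counted from the start site, with negative numbers for bases before it, the 4 E-boxes of Lamp1 begin at -61, -45, -28 and -15. Mcoln1 has E-boxes at -71 and -45, Ctsd at -245 and -98 and Cln3 at -149 and -121, and for each of these genes the one nearer to the start is shown. The members that fell hold the same letters at similar distances, at -48 for Glb1 and -79 for Ctsf.

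**Figure D1:**
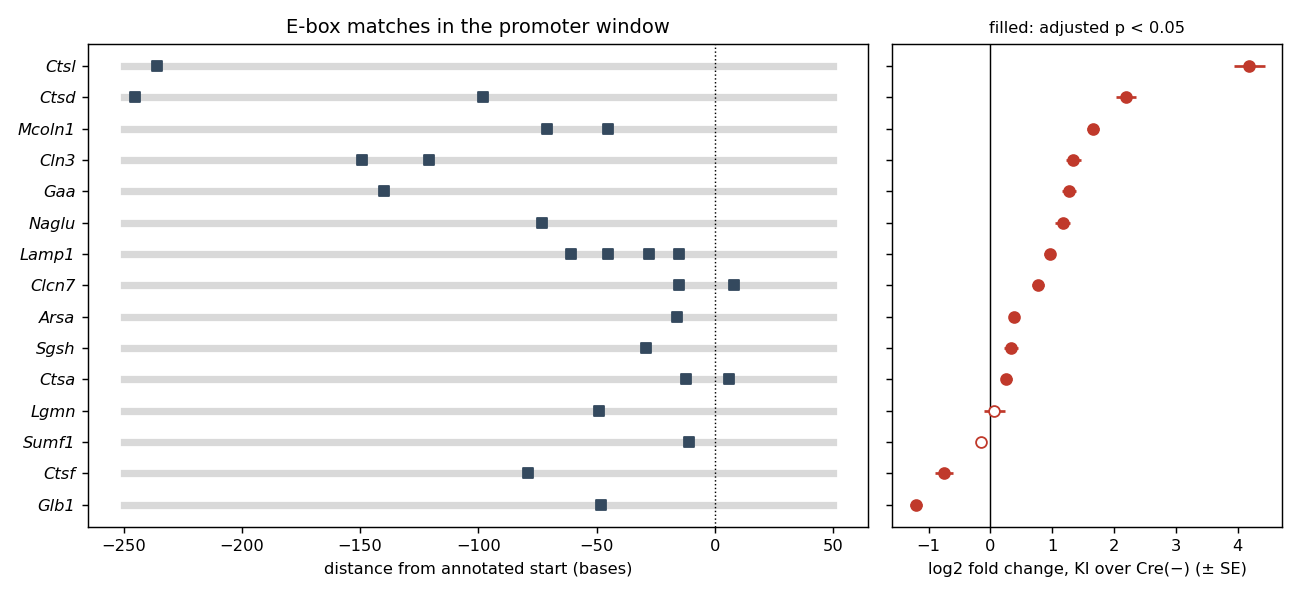
E-box letters in the promoter windows of 15 members (left, squares, distance from the annotated start in bases, grey bar for the window) beside the log2 fold change of each gene in KI over Cre(−) kidneys with its SE (right, filled where the adjusted p is under 0.05). Of the genes with squares 11 rose and 2, Ctsf and Glb1, fell, while Lgmn and Sumf1 passed neither way, and Gla is left out because it was listed at 0 in most libraries.

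Library totals ranged from 16504419 to 24668827 expected counts (median 18635282), and levels are given as CPM, counts scaled to a common library total with TMM factors. The fusion was visible in its known target Gpnmb, with 0.993 to 2.14 CPM in Cre(−) and 13009 to 15629 CPM in KI kidneys. Hif1a counts cover the whole gene, and those of Hif1α KO kidneys (163 to 198 CPM) and the DKO (174 to 203 CPM) overlapped those of KI (184 to 232 CPM). Loss of a floxed part of a gene need not lower its whole count, and was not checked. Epas1, which encodes HIF2α, had 173 to 192 CPM in KI, 136 to 149 CPM in Hif2α KO and 155 to 165 CPM in DKO kidneys, but was also at 163 to 179 CPM in Hif1α KO kidneys, where it was not floxed. The labelled tissue was borne out by the tubule markers, since 10 proximal tubule genes summed to 12098 to 13816 CPM in Cre(−) kidneys. KI replicate 2 stood apart with 1700 CPM of 5 adipocyte markers, against a median of 122 CPM in its group, and counts without it are given where it changes them. P-values measure the spread between these mice only, since the labels name no litter or batch.

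PRCC-TFE3 KI kidneys were compared with Cre(−) kidneys to show how the fusion changes the lysosomal genes. Of the 54 members 33 were higher and 11 lower, where 31.6% and 29.3% of all genes tested were higher and lower, and 10 did not pass (quasi-likelihood test of edgeR, p adjusted by Benjamini-Hochberg and called edgeR adjusted p from here on). The median log2 fold change of the members was 0.58, against 0.03 over all genes. The KI libraries were all above the Cre(−) libraries for 32 members and all below them for 11, against 28.9% and 27.7% of all genes. Leaving out KI replicate 2 left 32 members higher and 11 lower.

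The direction of the smaller falls depends on the scale. Genes of the mitochondrial genome took 31.56% to 36.22% of all TPM (a unit of transcript abundance corrected for length, whose total is the same in each library) in Cre(−) kidneys and 15.09% to 15.55% in KI kidneys, and the median of all genes was 0.38 higher in KI when log2(TPM + 1) was tested with limma. On that scale 42 members were higher and 5 lower. The share of all genes called on that scale is not given, so these counts cannot be set against one. The 5 that stayed lower were Lipa, Gm2a, Glb1, Galc and Ctsf, whereas Ppt1, Lamp2 and Slc17a5 turned to the positive side without passing, and Ctsh, Ids and Acp5 stayed negative without passing. With library medians aligned, limma gave 32 higher and 11 lower. In that fit 0 of the 44 called members changed sign and 1, Sgsh, did not pass.

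**Figure D2:**
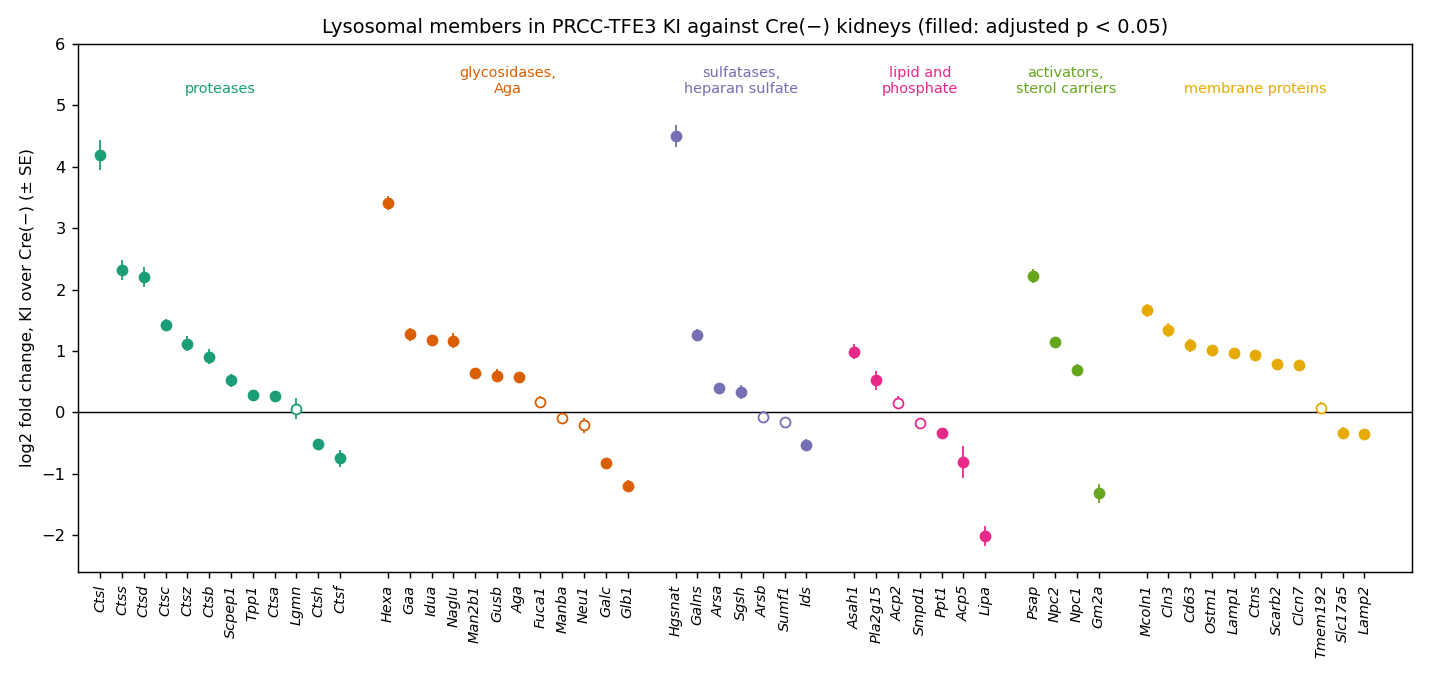
Log2 fold change of 53 members in KI over Cre(−) kidneys with the SE of the fit, grouped by class and sorted within it. Filled points passed an adjusted p of 0.05. Hgsnat (4.50), Ctsl (4.19) and Hexa (3.41) lie far above the rest and Lipa (-2.01) lowest.

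Among the 12 proteases 9 rose and 2 fell. This count and those of the classes below stand beside the same 31.6% and 29.3% of all genes that rose and fell. Cathepsin L (Ctsl, ENSMUSG00000021477.9, chromosome 13 from 64359337 to 64370890 in GRCm38), a cysteine endoprotease of the lysosome, had 423, 380, 412 and 410 CPM in the 4 Cre(−) kidneys. It had 6580, 7659 and 7933 CPM in the 3 KI kidneys. The groups were separated by a wide gap, with a log2 fold change of 4.19 ± 0.25 (SE) and an edgeR adjusted p of 3.50e-09, or 18.2-fold. The rise was carried by several transcripts of the gene, and the main coding transcript Ctsl-201 alone went from 156 to 163 TPM in Cre(−) to 3826 to 4266 TPM in KI kidneys.

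The aspartic protease cathepsin D (Ctsd), which matures other lysosomal enzymes, had 497, 494, 420 and 477 CPM in Cre(−) kidneys. In KI kidneys it had 2139, 2066 and 2282 CPM. No KI value came near a control value, and the change was 2.20 ± 0.16 on the log2 scale (4.58-fold, edgeR adjusted p = 2.49e-08). Reads of Ctsd can be shared with Gm49369, a gene that overlaps its exons on the same strand.

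Cathepsin S (Ctss), a protease of antigen-presenting cells, rose from 19.1 to 27.8 CPM over the Cre(−) kidneys to 108, 143 and 93.6 CPM in KI kidneys (2.32 ± 0.16, edgeR adjusted p = 1.13e-08). Its 3 KI values spread more widely than those of Ctsd, with the highest in replicate 2. Markers of macrophages moved with it: 12 of 13 rose, all but Csf1r, and their summed level went from 231 to 306 CPM in Cre(−) to 765 to 1033 CPM in KI kidneys. Of 5 fibroblast markers 4 rose as well, with sums of 191 to 241 CPM in Cre(−) and 441 to 467 CPM in KI kidneys, as did 3 of the 5 adipocyte markers, and the part of any of these markers in the rises of Ctss and other members was not tested. Cathepsin B (Ctsb) rose 1.88-fold, from 633 to 729 CPM to 1323, 1191 and 1369 CPM (0.91 ± 0.12, edgeR adjusted p = 8.04e-06).

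The exopeptidases Ctsc (1.42), Ctsz (1.12), Scpep1 (0.52), Tpp1 (0.29) and Ctsa (0.26) rose on the log2 scale as well, the last with overlapping groups. Legumain (Lgmn), an asparaginyl endopeptidase, did not pass, with 629 to 848 CPM in Cre(−) and 593 to 1025 CPM in KI kidneys. Cathepsin F (Ctsf) had 71.0, 77.7, 71.2 and 77.1 CPM in Cre(−) kidneys and 37.8, 38.1 and 56.2 CPM in KI kidneys. All KI values of Ctsf lay below all controls (-0.75 ± 0.14, edgeR adjusted p = 2.12e-04). The aminopeptidase cathepsin H (Ctsh) was lower too (-0.52 ± 0.07), but did not pass in TPM unless library medians were aligned.

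Of the 13 glycosidases with aspartylglucosaminidase, enzymes that trim sugars from glycolipids and glycoproteins, 7 rose and 2 fell. The alpha subunit of beta-hexosaminidase (Hexa, ENSMUSG00000025232.8, chromosome 9 from 59539540 to 59565109), which degrades ganglioside GM2, had 67.6, 58.6, 60.6 and 67.8 CPM in Cre(−) kidneys. It had 662, 658 and 707 CPM in KI kidneys. The groups were far apart, and the change was 10.6-fold (3.41 ± 0.12, edgeR adjusted p = 2.51e-11). Acid alpha-glucosidase (Gaa, 1.27), which degrades glycogen in lysosomes, Idua (1.18), Naglu (1.17), Man2b1 (0.64), Gusb (0.60) and Aga (0.57) rose on the log2 scale, and none of these had overlapping groups.

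Beta-galactosidase (Glb1), which removes terminal galactose, went the other way, with 148.5, 126.5, 124 and 139 CPM in Cre(−) kidneys. In KI kidneys it had 65.6, 54.3 and 55.5 CPM. All KI values of Glb1 lay far below the lowest control (-1.20 ± 0.10, edgeR adjusted p = 1.24e-07), and reads of Glb1 can be shared with Tmppe, whose exons it overlaps. Galactosylceramidase (Galc), which degrades myelin lipids, had 118 to 159 CPM in Cre(−) and 74.7, 75.7 and 79.4 CPM in KI kidneys (-0.83 ± 0.09, edgeR adjusted p = 8.58e-07).

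Fuca1, Manba and Neu1 did not pass, with log2 fold changes of 0.17, -0.09 and -0.21. Alpha-galactosidase A (Gla) was listed at 0 in 12 of the 17 libraries and at no more than 2.34 CPM in the others, 1 of them in each group. A gene that many cells use being listed at 0 may be a failed estimate of the transcript counts, and no fold change is given.

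Of the 7 sulfatases and heparan sulfate enzymes 4 rose and 1 fell. Hgsnat (ENSMUSG00000037260.8, chromosome 8 from 25944453 to 25976753), a membrane enzyme that acetylates heparan sulfate so that Naglu can cut it, had 57.0, 57.8, 56.9 and 54.2 CPM in Cre(−) kidneys. It had 1211, 1345 and 1280 CPM in KI kidneys. This was the largest rise of any member (22.6-fold, 4.50 ± 0.18, edgeR adjusted p = 7.84e-11). The coding transcript Hgsnat-201 alone went from 17.1 to 21.9 TPM to 551 to 627 TPM, and a transcript with a retained intron, Hgsnat-203, from 8.94 to 11.8 TPM to 323.5 to 415 TPM. Galns (1.26), Arsa (0.39) and Sgsh (0.33), sulfatases of different substrates, were higher on the log2 scale, Sgsh with overlapping groups. Iduronate sulfatase (Ids) was lower (-0.53 ± 0.09), while Arsb and Sumf1, the enzyme that activates all sulfatases, did not pass.

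Of the 7 lipid and phosphate enzymes 2 were higher and 3 lower, with a median log2 fold change of -0.18. Over all genes 31.6% were higher and 29.3% lower, and nothing particular to this small class is read from its count. Acid lipase (Lipa), which frees cholesterol and fatty acids from lipoprotein lipids, had 268, 223, 235 and 240 CPM in Cre(−) kidneys. It had 54.03, 54.39 and 71.1 CPM in KI kidneys. Every KI kidney lay far below the lowest control, and the change was -2.01 ± 0.16 (edgeR adjusted p = 7.07e-08). Tartrate-resistant acid phosphatase (Acp5) had 33.0 to 41.0 CPM in Cre(−) and 11.55, 33.4 and 18.6 CPM in KI kidneys, where replicate 2 overlapped the controls (-0.81 ± 0.26, edgeR adjusted p = 0.0128). The adjusted p of Acp5 was 0.0581 without KI replicate 1 and 0.0518 without KI replicate 3. Ppt1 was lower on the count scale (-0.34), and in TPM only with library medians aligned. Acid ceramidase (Asah1, 0.99) and the phospholipase Pla2g15 (0.52) rose, and acid sphingomyelinase (Smpd1) and Acp2 did not pass.

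All 4 activators and sterol carriers changed. Prosaposin (Psap), the precursor of saposins that present lipids to hydrolases, had 1234, 1191, 1098 and 1013 CPM in Cre(−) kidneys. It had 5166, 4754 and 5926 CPM in KI kidneys. The groups did not overlap (4.66-fold, 2.22 ± 0.12, edgeR adjusted p = 1.31e-09). The sterol carriers Npc2 (1.14) and Npc1 (0.69) rose. The GM2 activator (Gm2a), the protein that lifts GM2 to beta-hexosaminidase, fell from 524, 420, 371 and 395 CPM in Cre(−) kidneys to 170, 161 and 183 CPM in KI kidneys. The change of -1.32 ± 0.15 (edgeR adjusted p = 1.66e-06) ran opposite to that of Hexa, the enzyme subunit it serves.

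Of the 11 membrane proteins 8 rose and 2 fell. The calcium channel Mcoln1 (TRPML1) had 67.3, 63.2, 61.5 and 59.5 CPM in Cre(−) kidneys and 198, 185 and 215 CPM in KI kidneys. Its values were tight and separate, with a 3.17-fold rise (1.66 ± 0.10, edgeR adjusted p = 3.16e-09). Lamp1, the most abundant lysosomal membrane glycoprotein, had 1052, 966, 992 and 999 CPM in Cre(−) and 1889, 1911 and 2045 CPM in KI kidneys (0.96 ± 0.09, edgeR adjusted p = 2.34e-07).

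Scarb2 (LIMP-2), the receptor that carries glucocerebrosidase to lysosomes, went from 63.7 to 79.0 CPM to 123, 133 and 119 CPM (0.78 ± 0.08, edgeR adjusted p = 1.02e-06). Cln3 (1.34), the tetraspanin Cd63 (1.09), the chloride transporter Clcn7 (0.77) and the cystine exporter Ctns (0.93) rose on the log2 scale, and Ostm1, the partner of Clcn7, rose 2.01-fold. Lamp2 had 725, 677, 721 and 631 CPM in Cre(−) and 514, 516 and 585 CPM in KI kidneys. Its KI values lay below all controls on this scale (-0.36 ± 0.08, edgeR adjusted p = 8.99e-04), but its mean TPM was 298 ± 30.2 (SD, n = 4) in Cre(−) and 317 ± 18 (SD, n = 3) in KI kidneys. Slc17a5, the sialic acid exporter, was lower on the count scale (-0.33), and in TPM only with library medians aligned. Tmem192 did not pass.

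Markers of the tubule and of podocytes moved with the fall of Lipa, Gm2a, Glb1, Galc and Ctsf. All 10 proximal tubule markers fell, and their sum went from 12098 to 13816 CPM in Cre(−) to 1014 to 1166 CPM in KI kidneys. The 5 markers of the thick limb and distal tubule also fell, from 7649 to 9272 CPM to 1008 to 1733 CPM. Of 6 collecting duct markers 5 fell and 1 rose. Outside the tubule 4 of 5 podocyte markers and 2 of 4 endothelium markers fell, and 0 of either rose. The part of any of these markers in the falls of members was not tested. In whole kidney RNA fewer cells of a type and less RNA per cell cannot be told apart.

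**Figure D3:**
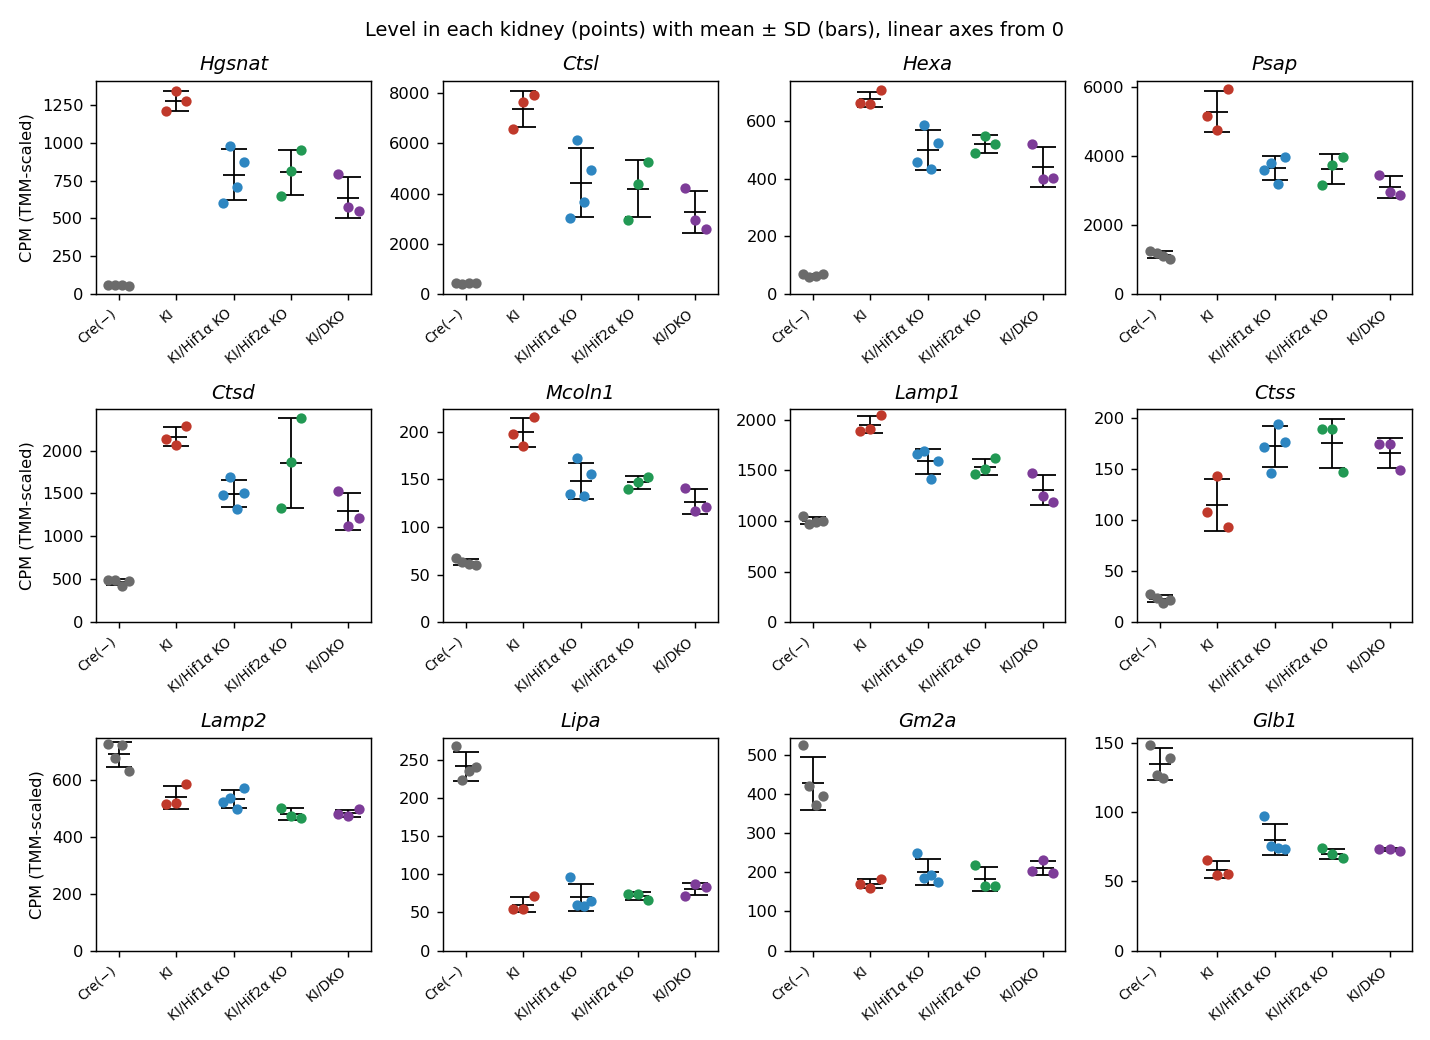
CPM of 12 members in each of the 17 kidneys (points) with the mean and SD of each group (bars) on linear axes that start at 0. The first 8 genes rose in KI kidneys, and of these all but Ctss lie lower in the DKO than in KI, while Lamp2 (on this scale, not in TPM), Lipa, Gm2a and Glb1 are lower in every group with Cre than in Cre(−) kidneys.

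Of the members that hold an E-box 11 of 16 were higher and 2 lower in KI kidneys, where 31.6% and 29.3% of all genes were. Their median log2 fold change was 0.86, with Gla counted. Of the 31 members with a window but no E-box 16 were higher and 8 lower, with a median of 0.29. Of the 7 members with the CLEAR core (Ctsa, Ctsd, Gla, Sumf1, Mcoln1, Clcn7, Cln3) 5 were higher and none lower. Apart from Gla, for which no fold change is given, their log2 fold changes ran from -0.15 (Sumf1) to 2.20 (Ctsd). These medians are descriptions without a test, and Hexa, among the largest rises, had a window without an E-box.

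Levels can be compared between genes on the TPM scale. The members with the highest mean TPM over all libraries were Ctsl, Ctsd and Lgmn among the proteases, Hexa, Fuca1 and Neu1 among the glycosidases, Hgsnat, Galns and Arsb among the sulfatases and heparan enzymes, Asah1, Ppt1 and Smpd1 among the lipid and phosphate enzymes, Psap, Npc2 and Gm2a among the activators and carriers, and Cd63, Lamp1 and Lamp2 among the membrane proteins. Ctsl had 384 ± 18.6 TPM (SD, n = 4) in Cre(−) and 9779 ± 923 TPM (SD, n = 3) in KI kidneys. Hexa rose from 36.2 ± 0.971 TPM (SD, n = 4), below the 231 ± 13.2 TPM (SD, n = 4) of Fuca1 in its class, to 532 ± 8.62 TPM (SD, n = 3) against 364 ± 31.2 TPM (SD, n = 3) for Fuca1. The order within a class differed in Cre(−) kidneys, where Lgmn (454 TPM) stood above Ctsl, Arsb (42.6 TPM) above Hgsnat (38.4 TPM), Gm2a (115 TPM) above Npc2 (36.9 TPM), and Lipa had the highest mean of the lipid and phosphate enzymes with 92.0 TPM, next to 85.2 TPM for Asah1.

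Summed over the 54 members, the transcripts made up 0.597%, 0.615%, 0.561% and 0.537% of all TPM in the 4 Cre(−) kidneys. In the 3 KI kidneys they made up 2.48%, 2.62% and 2.58%. The lowest KI kidney was far above the highest control, and the ratio of the group means was 4.43 (log2 ratio 2.15). On the count scale the sum rose less, from 10005 to 11337 CPM to 26834 to 30162 CPM (log2 ratio 1.43). Ctsl alone carried much of it, since the ratio of summed TPM was 2.93 over the other 53 members and 2.51 without Ctsl, Psap and Cd63.

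Proteases went from 2069 ± 93.6 (SD, n = 4) to 14036 ± 857 (SD, n = 3) summed TPM, a ratio of 6.78, and sulfatases and heparan enzymes, led by Hgsnat, from 176 ± 14.1 (SD, n = 4) to 1499 ± 128 (SD, n = 3), a ratio of 8.50. Lipid and phosphate enzymes changed least in TPM, from 318 ± 23.8 (SD, n = 4) to 428 ± 25.4 (SD, n = 3) summed TPM, a ratio of 1.35. On the count scale their sum went the other way, from 603 to 705 CPM in Cre(−) to 494 to 548 CPM in KI kidneys. In the Hif1α KO, Hif2α KO and DKO kidneys all members summed to 1.52% to 2.18%, 1.52% to 2.20% and 1.5% to 1.86% of TPM, in each case between the Cre(−) and the KI kidneys.

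**Figure D4:**
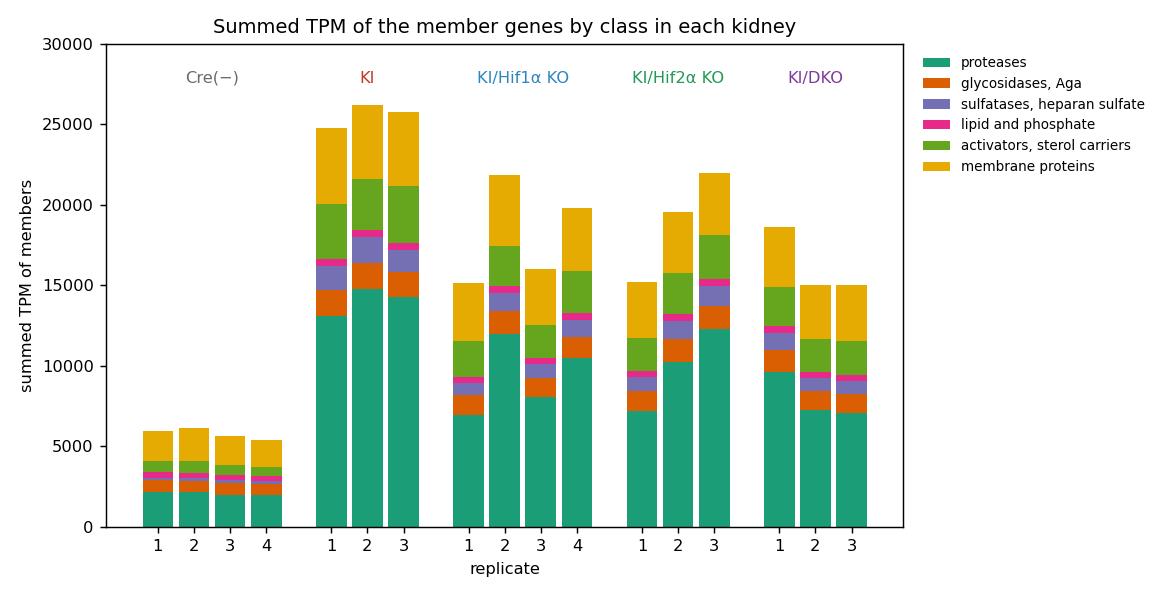
Summed TPM of the members in each kidney, stacked by class, on an axis that starts at 0. Cre(−) kidneys reach 5367 to 6154, KI kidneys 24779 to 26182, and all 10 knockout kidneys lie between, at 15026 to 22010, with proteases as the largest class in each.

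The knockout groups were compared with KI to show how the members change when a HIF subunit is also floxed in the same epithelium. These comparisons share the KI libraries with each other and with the comparison above, so each is given by its own values. In Hif1α KO kidneys 9 members were lower and 2 higher than in KI, where 2.86% and 2.57% of all genes were lower and higher. The median log2 fold change of the members was -0.18, against -0.00 over all genes. The members that fell were Ostm1, Psap, Mcoln1, Naglu, Hgsnat, Ctsz, Scpep1, Hexa and Idua, and those that rose were Glb1 and Ctss.

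Ostm1 had 64.0, 70.3 and 64.6 CPM in KI and 44.9, 46.7, 48.7 and 53.2 CPM in the Hif1α KO, without overlap between groups (-0.45 ± 0.08, edgeR adjusted p = 0.00781), and Ostm1 was the only member whose call held whichever of the 17 libraries was left out. Psap had 3591, 3805, 3173 and 3981 CPM in Hif1α KO kidneys, below all KI values (-0.54 ± 0.12, edgeR adjusted p = 0.0186). Mcoln1 had 134, 172, 132 and 156 CPM (-0.43 ± 0.10, edgeR adjusted p = 0.0224).

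Hgsnat had 603, 978.5, 705 and 871 CPM in Hif1α KO kidneys, 1.62-fold below KI (-0.70 ± 0.16, edgeR adjusted p = 0.0249). Naglu had 59.1 to 68.3 CPM against 82.1 to 106 CPM in KI (-0.54 ± 0.12, edgeR adjusted p = 0.0233), and Ctsz 260 to 298 CPM where KI had 336 to 412 CPM (-0.47 ± 0.12, edgeR adjusted p = 0.0345). Glb1, which was low in KI, had 96.8, 75.55, 74.0 and 73.2 CPM in the 4 Hif1α KO mice (0.45 ± 0.10, edgeR adjusted p = 0.0223). Ctss had 172, 146, 195 and 177 CPM against 108, 143 and 93.6 CPM in KI (0.58 ± 0.15, edgeR adjusted p = 0.038), while the 13 macrophage markers summed to 877 to 1197 CPM in Hif1α KO against 765 to 1033 CPM in KI kidneys, and their part was not tested.

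The count of 9 lower members rested on single libraries. It was 1 without Hif1α KO replicate 1 or without replicate 3, 2 without KI replicate 3, and 5 without KI replicate 1, KI replicate 2 or Hif1α KO replicate 4. The higher members were 0 without KI replicate 3 or Hif1α KO replicate 1, and 1 without KI replicate 1, Cre(−) replicate 2, or Hif1α KO replicate 3 or 4. DESeq2 gave 21 lower and 2 higher, but its share of all genes is not given, so these counts cannot be set against one. Gpnmb was at 3269 to 7452 CPM in Hif1α KO against 13009 to 15629 CPM in KI kidneys, and the thick limb and distal markers summed to 2456 to 5164 CPM against 1008 to 1733 CPM. Of the 10 proximal tubule markers 5 were higher than in KI, with sums of 1223 to 2797 CPM against 1014 to 1166 CPM, and the part of these signals in the falls was not tested.

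In Hif2α KO kidneys 4 members, Ctns, Psap, Mcoln1 and Ostm1, were lower than in KI, where 0.647% of all genes were lower. None was higher by edgeR, where 0.741% of all genes were higher. DESeq2 called 2 higher and 14 lower, and 26 members had an unadjusted edgeR p under 0.05 in either direction. No share of all genes is given for the DESeq2 and unadjusted counts, so nothing particular to the members is read from them. The cystine exporter Ctns had 63.3, 55.3 and 54.7 CPM against 77.0, 77.55 and 86.2 CPM in KI, without overlap (-0.47 ± 0.08, edgeR adjusted p = 0.0199). Psap had 3143, 3734 and 3978 CPM (-0.55 ± 0.13, edgeR adjusted p = 0.048). Mcoln1 had 139.5, 147 and 153 CPM (-0.44 ± 0.10, edgeR adjusted p = 0.0489), and Ostm1 46.35, 51.2 and 57.45 CPM (-0.36 ± 0.08, edgeR adjusted p = 0.0489).

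The last 3 stood just under the threshold. The count was 0 without KI replicate 3 or without Hif2α KO replicate 2, 2 without Hif1α KO replicate 1 or 2, and 1 without any of the 4 Cre(−) libraries, KI replicate 2, Hif1α KO replicate 3 or 4, Hif2α KO replicate 1 or 3, or DKO replicate 2 or 3. Without KI replicate 2 there was also 1 higher member. Ctsl had 2960, 4395 and 5242 CPM in Hif2α KO kidneys and did not pass (-0.82 ± 0.25, edgeR adjusted p = 0.0978). Gpnmb was at 4953 to 11387 CPM in Hif2α KO kidneys, below all KI values, and the thick limb and distal markers summed to 2217 to 4223 CPM, above all KI values, while the proximal tubule markers (980 to 2385 CPM) overlapped KI. Their part in the falls was not tested.

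**Figure D5:**
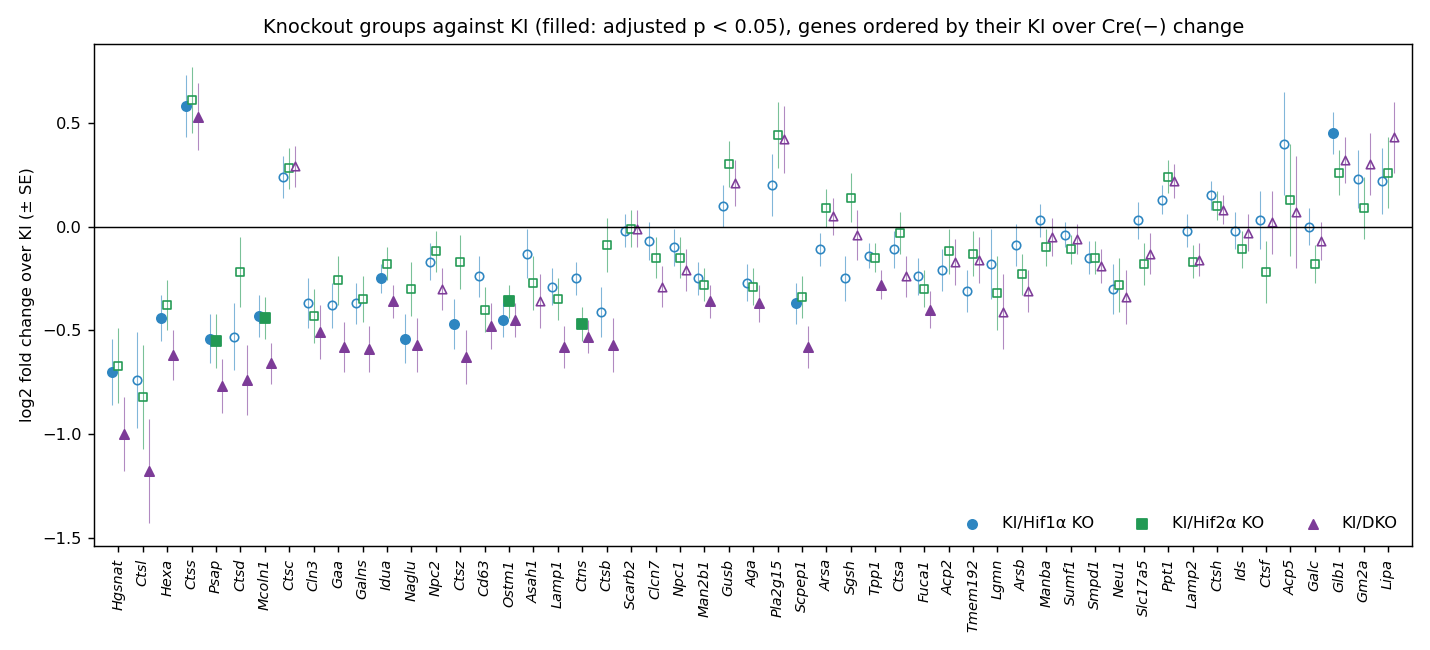
Log2 fold change over KI, with the SE of the fit, of 53 members in Hif1α KO (circles), Hif2α KO (squares) and DKO kidneys (triangles), with genes ordered from left to right by their change in KI over Cre(−) kidneys. Filled points passed an adjusted p of 0.05, and filled triangles below 0 mark the 22 members lower in the DKO.

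The DKO kidneys had the most changed members, with 22 lower and 1 higher than in KI, where 6.19% and 6.53% of all genes were lower and higher. The median log2 fold change was -0.30, against -0.00 over all genes. The DKO libraries were all below the KI libraries for 30 members and all above for 8, against 17.2% and 16.5% of all genes. By class 6 of 12 proteases fell, 7 of 13 glycosidases, 2 of 7 sulfatases and heparan enzymes, 1 of 4 activators and carriers (Psap) and 6 of 11 membrane proteins, but none of the 7 lipid and phosphate enzymes. Of these 7, 5 had an unadjusted edgeR p under 0.05, with Lipa, Ppt1 and Pla2g15 on the higher side and Asah1 and Smpd1 on the lower. No share of all genes is given at this unadjusted threshold.

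Mcoln1 had 141, 117 and 121 CPM in DKO kidneys, against 185 to 215 CPM in KI and 59.5 to 67.3 CPM in Cre(−). All DKO values thus lay between the other groups (-0.66 ± 0.10 against KI, edgeR adjusted p = 0.00229). Lamp1 had 1477, 1247 and 1189 CPM (-0.58 ± 0.10, edgeR adjusted p = 0.00268), and Psap 3451, 2947 and 2875 CPM (-0.77 ± 0.13, edgeR adjusted p = 0.00261). Both lay below all KI and above all Cre(−) kidneys.

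Hgsnat had 791, 572 and 549 CPM, 2.01-fold below KI (-1.0 ± 0.18, edgeR adjusted p = 0.0039). Ctns had 54.5, 55.6 and 56.4 CPM (-0.53 ± 0.08, edgeR adjusted p = 0.00229). Scpep1, a serine carboxypeptidase, had 131, 124 and 122 CPM in DKO kidneys, within its range in Cre(−) kidneys of 116 to 147 CPM and below the 176.5 to 204 CPM of KI (-0.58 ± 0.10, edgeR adjusted p = 0.0043).

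Ctsl showed the largest log2 difference of the called members (-1.18 ± 0.25, edgeR adjusted p = 0.00883), with 4220, 2961 and 2599 CPM, which is still several times its level in Cre(−) kidneys. Ctss was the member that rose, with 174, 174 and 149 CPM (0.53 ± 0.16, edgeR adjusted p = 0.0434). The macrophage markers summed to 976 to 1122 CPM in the DKO, against 765 to 1033 CPM in KI.

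Other signals moved with the falls in the DKO. Gpnmb was also lower, at 2807 to 6415 CPM against 13009 to 15629 CPM in KI. Proximal tubule markers summed to 1638 to 2258 CPM against 1014 to 1166 CPM, and thick limb and distal markers to 3057 to 5309 CPM against 1008 to 1733 CPM, and their part in the falls was not tested. The count of lower members was 13 without DKO replicate 2, 14 without DKO replicate 3 and 22 without KI replicate 2, and 13 of the 22 calls held whichever library was left out. The call of Ctss was lost without any of 11 libraries in turn, among them KI replicates 1 and 3 and each DKO replicate. By limma on log2(TPM + 1) 13 members were lower and 4 higher, and with library medians aligned 30 were lower and 0 higher. No share of all genes is given for these limma counts.

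The knockouts of Hif1α and Hif2α were compared with each other to see whether either deletion changed members that the other did not. None of the 54 members passed by edgeR in either direction, against 0.329% (higher in Hif1α KO) and 0.0999% (lower) over all genes. An unadjusted edgeR p under 0.05 was found for 7 members, without a share of all genes beside it. DESeq2 called 1 lower, Sgsh, a heparan sulfamidase, with 21.0, 18.6, 22.3 and 19.7 CPM in Hif1α KO and 24.1, 26.5 and 29.4 CPM in Hif2α KO kidneys (-0.39 ± 0.11, edgeR adjusted p = 0.126). Its groups did not overlap. Ctns followed, with 62.8 to 71.7 CPM in Hif1α KO and 54.7 to 63.3 CPM in Hif2α KO (0.22 ± 0.08, edgeR adjusted p = 0.197).

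The interaction, which tests whether the DKO departs from the sum of the single knockouts on the log2 scale, passed for none of the members by edgeR or DESeq2 and for 0.0% of all genes by edgeR. An unadjusted edgeR p under 0.05 was found for 3 members, without a share of all genes beside it. The smallest p values belonged to Ostm1 (0.36 ± 0.12, edgeR adjusted p = 0.687), whose 3 knockout groups all lay near 45 to 57 CPM, and Ctss (-0.66 ± 0.22, edgeR adjusted p = 0.717). A p that misses the threshold does not show that the deletions add up.

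Against Cre(−) kidneys, each knockout group still differed in most members. In Hif1α KO kidneys 30 were higher and 14 lower (31.9% and 30.1% of all genes), in Hif2α KO 31 and 15 (32.0% and 29.9%) and in the DKO 29 and 15 (30.4% and 27.9%). The members with the smallest p values among the higher ones were Hexa, Hgsnat, Ctss, Ctsc, Psap and Ctsl in each of the 3 comparisons, which share the Cre(−) libraries. By limma on log2(TPM + 1) the split was 39 higher and 5 lower in Hif1α KO, 39 and 5 in Hif2α KO and 39 and 4 in the DKO, with the median of all genes at 0.35, 0.43 and 0.45. No share of all genes is given for that scale. On that scale 2 members in each comparison passed in the opposite direction to the count scale, namely Sumf1 and Ppt1 in Hif1α KO (0.25 and 0.22 in TPM, -0.19 and -0.21 in counts), Manba and Sumf1 in Hif2α KO (0.30 and 0.25 in TPM, -0.19 and -0.26 in counts), and Fuca1 and Sumf1 in the DKO (0.35 and 0.33 in TPM, -0.23 and -0.21 in counts). With library medians aligned, no called member changed sign in any of the 3 comparisons.

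The rise of Hexa over Cre(−) was 7.85-fold in Hif1α KO (2.97 ± 0.11, edgeR adjusted p = 6.71e-11), 8.16-fold in Hif2α KO (3.03 ± 0.12, edgeR adjusted p = 1.39e-10) and 6.91-fold in the DKO (2.79 ± 0.12, edgeR adjusted p = 2.74e-10). Hgsnat was 14.0-fold, 14.3-fold and 11.3-fold and Ctsl 10.9-fold, 10.3-fold and 8.03-fold above Cre(−) in the same order. Psap was 3.21-fold, 3.19-fold and 2.73-fold above. Ctsc and Ctss did not show this lower level in the knockouts, with log2 fold changes over Cre(−) of 1.66, 1.70 and 1.70 for Ctsc, against 1.42 in KI, and of 2.90, 2.93 and 2.85 for Ctss, against 2.32 in KI.

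The falls against Cre(−) stood in the knockouts too. Lipa was at -1.79 ± 0.15, -1.75 ± 0.16 and -1.58 ± 0.16 in Hif1α KO, Hif2α KO and DKO kidneys on the log2 scale. Gm2a was at -1.09 ± 0.13, -1.23 ± 0.15 and -1.02 ± 0.15, Galc at -0.82 ± 0.08, -1.01 ± 0.09 and -0.90 ± 0.09, and Glb1 at -0.75 ± 0.09, -0.94 ± 0.10 and -0.88 ± 0.10. Ids (-0.55, -0.64 and -0.57) was lower in all 3 groups on the count scale. In TPM it passed in none of them without aligned library medians and in all 3 with them. Ctsf was lower in all 3 as well (-0.72, -0.98 and -0.74), although in the DKO it did not pass in TPM without aligned medians. Ctsh (-0.37, -0.42 and -0.44) and Lamp2 (-0.37, -0.52 and -0.51) were lower in all 3 on the count scale and in none in TPM without aligned medians. In TPM without that step Ctsh had the opposite sign in each group (0.03 in Hif1α KO) and Lamp2 in Hif1α KO. With library medians aligned, both genes were lower in all 3 in TPM too.

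Lamp2 has 3 coding transcripts that share all but the last exon and encode membrane anchors with different roles, among them Lamp2a in chaperone-mediated autophagy, and their shares of the gene's TPM were compared between KI and Cre(−). Lamp2-201, whose last exon lies on chromosome X from 38405062 to 38405571, made up 52.5% ± 3.14 (SD, n = 4) in Cre(−) and 51.5% ± 5.45 (SD, n = 3) in KI kidneys. Lamp2-202, with its last exon from 38419507 to 38421851, made up 45.0% ± 3.07 (SD, n = 4) and 47.0% ± 5.31 (SD, n = 3). Neither share differed between KI and Cre(−) beyond the spread (exact permutation tests, two-sided, p = 0.8 and p = 0.457, adjusted p = 0.8 for both, where 0.0286 is the smallest p the design allows). Lamp2-203 was under the 5% needed for a test, with 1.28% to 2.08% in Cre(−) and 0.483% to 0.804% in KI kidneys. Lamp2-201 made up 49.6% to 52.8% in Hif1α KO kidneys. Its share was 39.7% to 44.1% in Hif2α KO and 44.0% to 46.7% in DKO kidneys, below every Cre(−) (49.7% to 57.0%) and KI kidney (46.8% to 57.4%), while that of Lamp2-202 was 54.5% to 58.9% and 51.7% to 54.2%, above every Cre(−) and KI kidney. These differences of the knockouts were not tested. In 52 of the 54 members the same transcript had the highest mean TPM in Cre(−) and in KI kidneys, the exceptions being Arsa and Lipa. Lipa-202 made up 74.3% of the gene's TPM in Cre(−) and 37.5% in KI kidneys, and Lipa-201 24.2% and 62.4%, which was not tested.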

How the data were processed

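RNA of mouse kidneys was sequenced by the authors from stranded mRNA libraries as single-end reads of 75 nt, trimmed with Trim Galore 0.6.6 and cutadapt 2.5, aligned with STAR 2.7.9a and quantified with RSEM. The methods name the human build hg38 for the alignment, while the files list mouse transcripts. The authors deposited expected counts, which are estimated counts that need not be whole, and TPM of each transcript, not normalized between libraries otherwise. Of 119353 transcripts 116770 (97.8%) matched GENCODE M21 (GRCm38), and they held 99.04% to 99.24% of the counts of each library. Counts and TPM were summed here over 35971 genes, and counts were rounded to whole numbers. At these depths counting error is small for all members but Gla.

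Genes were tested with edgeR 4.0.16 (quasi-likelihood, R 4.3.3), on TMM factors and genes kept by filterByExpr at a count of 10. All 17 libraries entered 1 fit that gives each group its own coefficient. P-values were adjusted by Benjamini-Hochberg over the 17011 genes tested, with a threshold of 0.05, and the SE is the log2 fold change divided by the square root of F. Alternatives were DESeq2 1.42.0, its size factors in edgeR, no filter, a fit of the groups compared alone, the replicate number as a block, limma 3.58.1 on log2(TPM + 1) and log2(TPM + 0.1), an absolute log2 fold change of at least 1, either pair of Cre(−) mice, and each library left out. limma on log2(TPM + 1) with library medians aligned was added after the data were seen. The fits were also run on simulated counts in which only a small part of the genes changed. That setting is unlike KI against Cre(−), where most genes passed, and it is not used as support here. Of the members 13 overlap exons of another expressed gene, 2 on the same strand and 11 on the other.

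The members and lists were chosen with earlier results of these data known. Named for KI against Cre(−) are Lamp1, Lamp2, Scarb2, Mcoln1, Ctsd, Ctsb, Psap and Gla and the 6 largest called changes in each direction, and for the other comparisons up to 6 called members per direction with the smallest p, or the 2 smallest where none passed, and the 3 members per class with the highest mean TPM. Other members are named with 1 value to account for the list. Permutation tests used scipy 1.17.1 and plots matplotlib 3.10.9.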

Additional observations from a re-analysis of the deposited data

Results flagged for a closer look

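In the 2 groups with 4 libraries, 108 combinations of member and group were looked at for a library that stands far from the other 3, and 8 did, all in Hif1α KO kidneys. Chance alone marks about 1 in 20 groups. Replicate 1 was high for Ctsa (324 CPM, others 271 to 276), Ctsf (55.2 CPM, others 40.8 to 42.9), Glb1 (96.8 CPM, others 73.2 to 75.5), Lipa (96.0 CPM, others 58.4 to 64.7) and Ppt1 (92.3 CPM, others 84.2 to 84.9). Replicate 4 was high for Man2b1 (195 CPM, others 172 to 174) and Clcn7 (116 CPM, others 102 to 104). Replicate 3 was low for Sumf1 (55.4 CPM, others 62.3 to 63.7). Glb1, Lipa, Ppt1 and Ctsf are among the 11 members that fell in KI kidneys.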

How the results depend on the processing

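Lower and higher counts are of the 54 members. Shares of all genes were given for the main edgeR fit only, so counts under the alternatives are not read against a share. In KI against Cre(−), 33 higher and 11 lower became 42 and 5 by limma on log2(TPM + 1) or log2(TPM + 0.1), and 17 and 3 at an absolute log2 fold change of at least 1. Leaving out a library gave 31 to 33 higher and 10 to 12 lower. Lamp2 turned to 0.09 in KI and Ctsh to 0.03 in Hif1α KO against Cre(−) at both pseudocounts. Neither gene changed sign in TPM with library medians aligned, and the cause was not tested. In Hif1α KO against KI the 2 higher and 9 lower became 2 and 21 by DESeq2, 0 and 2 with those groups alone, 1 and 2 with the replicate block, and 0 and 0 at a log2 fold change of 1, with 1 higher at either pseudocount, and 0 to 2 higher and 1 to 13 lower without a library. In Hif2α KO against KI the 4 lower became 14 (with 2 higher) by DESeq2, 1 without the filter, 0 with those groups alone, 1 with the replicate block, 1 and 0 at pseudocounts of 1 and 0.1, 2 with medians aligned, 0 at a log2 fold change of 1, and 0 to 5 without a library, with 0 to 1 higher. In DKO against KI the 1 higher and 22 lower became 4 higher by DESeq2, 0 with those groups alone or medians aligned, 2 with the replicate block, 4 and 13 at either pseudocount, and 0 and 2 at a log2 fold change of 1, and 0 to 2 higher and 13 to 24 lower without a library. DESeq2 called 1 lower in Hif1α KO against Hif2α KO, and leaving out a library called 0 there and 0 for the interaction. Against Cre(−), TPM gave 5, 5 and 4 lower in Hif1α KO, Hif2α KO and DKO kidneys, and a log2 fold change of 1 gave 8, 11 and 8 higher and 2, 3 and 2 lower. Leaving out a library gave 29 to 30, 29 to 32 and 27 to 30 higher, and 13 to 15, 13 to 15 and 12 to 16 lower. The log2 ratio of the summed level was 1.43 in CPM and 2.11 to 2.18 in TPM without a library. The difference in share of Lamp2-201 ran from -4.06 to 1.27 percentage points, with 0.404 without Cre(−) replicate 2 and 1.27 without KI replicate 1, and that of Lamp2-202 from -0.14 (without KI replicate 1) to 5.00. Of 2004 values for the members named for a comparison, each under an alternative, 1866 kept direction and side of the threshold, 133 lost the call, 1 gained it and 4, those of Lamp2 and Ctsh above, reversed. Over all called members, 46 of 432 calls, counted over both pseudocounts, changed sign on the TPM scale, all against Cre(−), with 12 past the threshold, and 0 of 5324 under the other alternatives.

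The replicate numbers did not pair the libraries. The deviations of 31 same-numbered pairs correlated at -0.223 to 0.249, 4 of them over 0.1, and 3 of 17 libraries correlated best with their own number. With the replicate block KI against Cre(−) had 32 higher and 12 lower members, and DKO against KI 22 lower. Depth limits only Gla, which has few or no counts. Groups of 3 or 4 mice, 1 tissue and whole-gene counts limit the rest, and transcript values are estimates from short reads.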

Other observations

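Among 43 other lysosomal genes that were tested, 23 rose and 12 fell in KI against Cre(−) kidneys (edgeR, median log2 fold change 0.37), where 31.6% and 29.3% of all genes rose and fell, so that the share that fell was near that of all genes. The largest rises were those of Cd68, a lysosomal glycoprotein used as a macrophage marker, from 4.76 ± 1.14 CPM (SD, n = 4) to 1113 ± 47.2 CPM (SD, n = 3) with a log2 fold change of 7.87 ± 0.25, of the heparanase Hpse (4.96 ± 0.42) and of the hyaluronidase Hyal1 (3.07 ± 0.27). Cd68 rose far more than the 13 macrophage markers, of which 12 rose, with a median log2 fold change of 1.99 over the list and a largest of 2.76. Csf1r, the only marker that did not rise, was at 82.8 to 84.6 CPM in KI against 89.2 to 101 CPM in Cre(−) kidneys. The part of macrophages in the rise of Cd68 was not tested. In the DKO Cd68 was lower than in KI (-1.39 ± 0.21, edgeR adjusted p = 0.00209). The largest falls were those of the phosphodiesterase Smpdl3a (-2.06 ± 0.16), the sulfatase Arsg (-1.18 ± 0.17) and the amino acid transporter Slc36a1 (-1.13 ± 0.10).

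Of 12 genes that tag or sort enzymes with mannose 6-phosphate, 5 rose and 2 fell, where 31.6% and 29.3% of all genes did, and nothing particular to the group is read from this count. The largest rises were those of the adaptor Gga2 (1.67 ± 0.11), the tagging enzyme subunit Gnptab (1.17 ± 0.14) and the receptor Igf2r (0.84 ± 0.12), while the other receptor, M6pr (-0.37 ± 0.07), and the subunit Gnptg (-0.68 ± 0.10) fell on the count scale.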
